A study of Mus musculus with 2 samples.

Results

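Semaphorins, plexins, neuropilins, netrins, Unc5 netrin receptors, Eph receptors and ephrins were described in colon tumours of mice. The members were the genes whose symbols name a semaphorin of classes 3 to 7, a plexin, a neuropilin, a netrin, an Unc5 receptor, an Eph receptor or an ephrin. This gave 61 of 32285 genes, and 60 of them had 20 or more unique molecular identifiers (UMIs, each one a captured transcript) over both libraries. The exception was Epha8, with 1 UMI.

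Colon tumours had been induced with AOM/DSS, a carcinogen followed by a colitis-causing agent, and dissociated into single cells. The IEC+/+ library, called WT here, came by its label from mice whose intestinal epithelium keeps Gsk3b, and the IEC-/- library, called KO, from mice whose epithelium has lost it. Both groups carried AOM/DSS tumours, so no untreated colon enters any comparison. The labels used here state neither how many animals each library holds nor their age, strain or the driver of the epithelial deletion.

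These families were first known for steering growing axons. Semaphorins signal through plexins, and most secreted class 3 semaphorins also need a neuropilin, while netrins signal through Dcc, neogenin and the Unc5 receptors. Ephrins and Eph receptors both sit in the membrane and signal when cells touch. In the intestinal crypt, Ephb2 and Ephb3 are Wnt target genes that sort cells along the crypt axis, and in vessels neuropilin 1, plexin D1 and ephrin-B2 take part in angiogenesis.

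After cell calling, 9898 WT and 10559 KO cells remained, with a median of 5167.5 and 3420.0 UMIs, and 34 barcodes occurred in both libraries. There was 1 library per genotype. No test was made and no p-value computed, no difference has a replicate check, and all intervals cover counting error only. Levels are the UMIs of a gene over all UMIs of a cell class, scaled to 1000000 (CPM), differences are log2 ratios of KO over WT, and all intervals are 95% intervals. All 10 epithelial markers were read in epithelial cells and all 11 blood endothelial markers in endothelial cells, in both libraries. Gsk3b stood at 263 and 241 CPM in WT and KO epithelial cells (log2 ratio −0.13). UMIs count the 3′ ends of transcripts, and no source here says which part of the gene was deleted, so this checks neither the deletion nor the labels.

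Sequence before the start site was searched for letters bound by TCF/LEF, the DNA-binding partners of β-catenin, because Ephb2 and Ephb3 are textbook Wnt targets. RefSeq windows (GRCm38.p6) were available for 53 members. The letters CTTTGAT or CTTTGAA, on either strand, occurred between 250 and 51 bases before the start in 3 of 53 members (5.66%), against 7.3% of 27025 genes. The members were Nrp2, Sema3e and Epha2, and the Ephb2 and Ephb3 windows held neither. The 2 windows below belong to members that the epithelial results turn on. They are written 5′ to 3′ on the gene's strand, with the matching letters in capitals (in Sema3e on the opposite strand), and a match is a description of letters, not a binding site.
Nrp2, chr1:62703067-62703266, plus strand: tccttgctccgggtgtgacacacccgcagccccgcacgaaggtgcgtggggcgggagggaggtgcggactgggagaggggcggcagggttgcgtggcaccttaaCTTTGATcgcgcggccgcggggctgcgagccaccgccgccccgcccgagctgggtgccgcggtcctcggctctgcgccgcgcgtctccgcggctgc
Sema3e, chr5:14025026-14025225, plus strand: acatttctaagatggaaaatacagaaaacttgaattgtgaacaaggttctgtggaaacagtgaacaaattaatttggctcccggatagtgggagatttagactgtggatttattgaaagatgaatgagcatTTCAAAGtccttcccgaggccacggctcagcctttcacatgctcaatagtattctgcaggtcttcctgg

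Endothelial cells, the epithelium and fibroblasts each had guidance genes that were highest there, and the endothelium had the most. A member was assigned to a class when that class was highest in both libraries and 2-fold or more above the next. By this rule 13 of 60 members belonged to endothelial cells, where 2.56% of all genes did, and 8 to epithelial cells (5.61% of all genes). None belonged to monocytes or macrophages (0.86% of all genes) or to neutrophils (1.96%), and 5 belonged to fibroblasts (3.63%), 4 of these with fewer than 15 WT UMIs there. Of the 13 endothelial members, Sema3a, Ephb1 and Sema3g also had fewer than 15 WT UMIs in their class (6, 11 and 13). No member belonged to B cells, T cells, dendritic cells, mast cells or plasma cells, which took 1.03%, 1.96%, 0.648%, 0.904% and 0.432% of all genes. The highest class was the same in both libraries for 49 of 60 members.

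Among endothelial ligands, the membrane semaphorin Sema6a had 456 CPM in WT and 505 CPM in KO endothelial cells, against 116 and 139 CPM in the epithelium, the next class. Sema6d had 130 and 119 CPM, Sema3f 141 and 121 CPM, Sema6b 57.3 and 42.3 CPM, and the ephrin Efna1 112 and 130 CPM. These ligands differed little between the libraries. Among receptors, Plxna2 stood at 372 and 331 CPM and Plxnd1, the plexin that binds Sema3e, at 161 and 135 CPM. Plxna4, a co-receptor for class 3 semaphorins, stood at 138 and 158 CPM, and the netrin receptor Unc5b, known from the tips of growing vessels, at 112 and 75.2 CPM (log2 ratio −0.57, interval −1.20 to 0.05). Ephb1 was read in 11 WT and 17 KO UMIs of endothelial cells (28.6 and 26.6 CPM). Ephb4, the venous receptor of ephrin-B2, had 46.9 and 40.7 CPM there, 2.23-fold above the next class in WT and 1.79-fold in KO, so it did not meet the rule. The last 3 endothelial members, Sema3a, Sema3d and Sema3g, are described with the lymphatic cells further on.

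In the epithelium the 8 members were Ephb2, Ephb6, Efna4, Sema3e, Sema4g, Plxnb1, Unc5d and Ntn5. Ephb2 had 91.1 and 87.4 CPM, and the next class, fibroblasts, had 24.5 and 16.0 CPM. Efna4, an ephrin-A ligand, had 30.1 and 27.2 CPM, Plxnb1, a receptor for Sema4d, had 16.8 and 14.0 CPM, and Sema4g had 36.1 and 51.3 CPM. Sema4g lay below the level of empty droplets (41.5 and 67.9 CPM), which hold free RNA. Ntn5, a netrin-like gene, was close to the floor, with 31 and 51 UMIs. Sema3c, a secreted semaphorin, was high in the epithelium (169 and 183 CPM) but higher still in fibroblasts (339 and 242 CPM). Without doublet removal only 3 members met the rule for the epithelium.

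**Figure D1:**
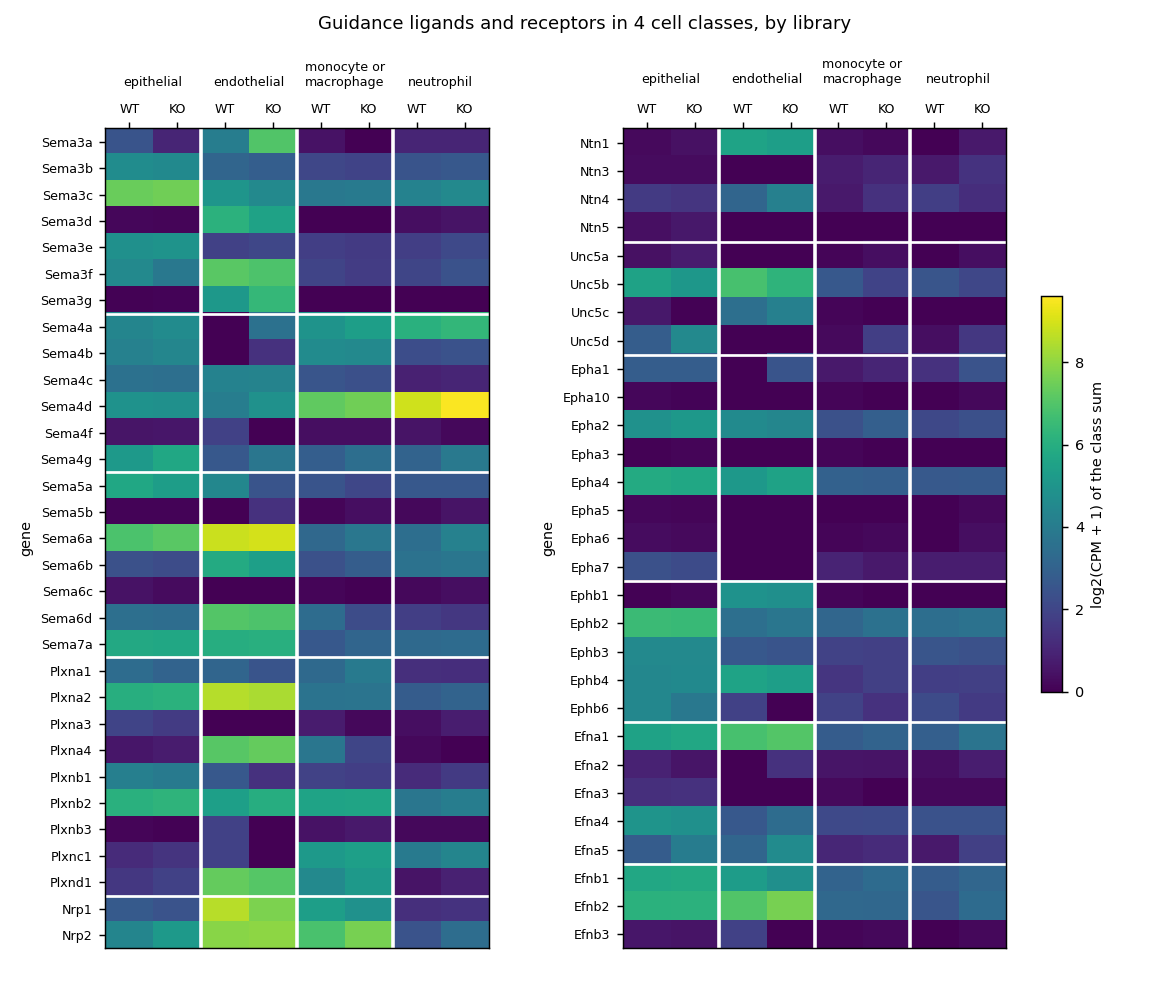
Level of each of the 60 members (rows, grouped by family) in 4 cell classes (column pairs, WT then KO), as log2(CPM + 1) of the summed UMIs. Sema4d is brightest in neutrophils, and Sema3c and Sema6a lead the epithelial columns. In endothelial cells Sema6a, Nrp1 and Plxna2 are brightest in WT, and Sema6a, Plxna2 and Nrp2 in KO.

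In the whole epithelium (4487 WT and 4323 KO cells) 12 of 54 members with 20 or more UMIs were beyond 1.5-fold between the libraries with an interval excluding 0. Of these, 6 were higher in KO (11.1% of members, 5.29% of all genes) and 6 lower (11.1%, 9.31% of all genes). The median log2 ratio was −0.06 over members and −0.06 over all genes. The other 42 tested members lay between −0.47 and 0.51, and 7 of the 61 had too few UMIs in the epithelium to be tested. Ntn1, Ntn5, Unc5a, Unc5c and Sema6c were among the 12 but lay below the empty droplets in their higher library. Fibroblast markers summed to 4.96 CPM in WT and 27.9 CPM in KO epithelial cells, and macrophage markers to 461 and 259 CPM; their part in the ratios was not tested.

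**Figure D2:**
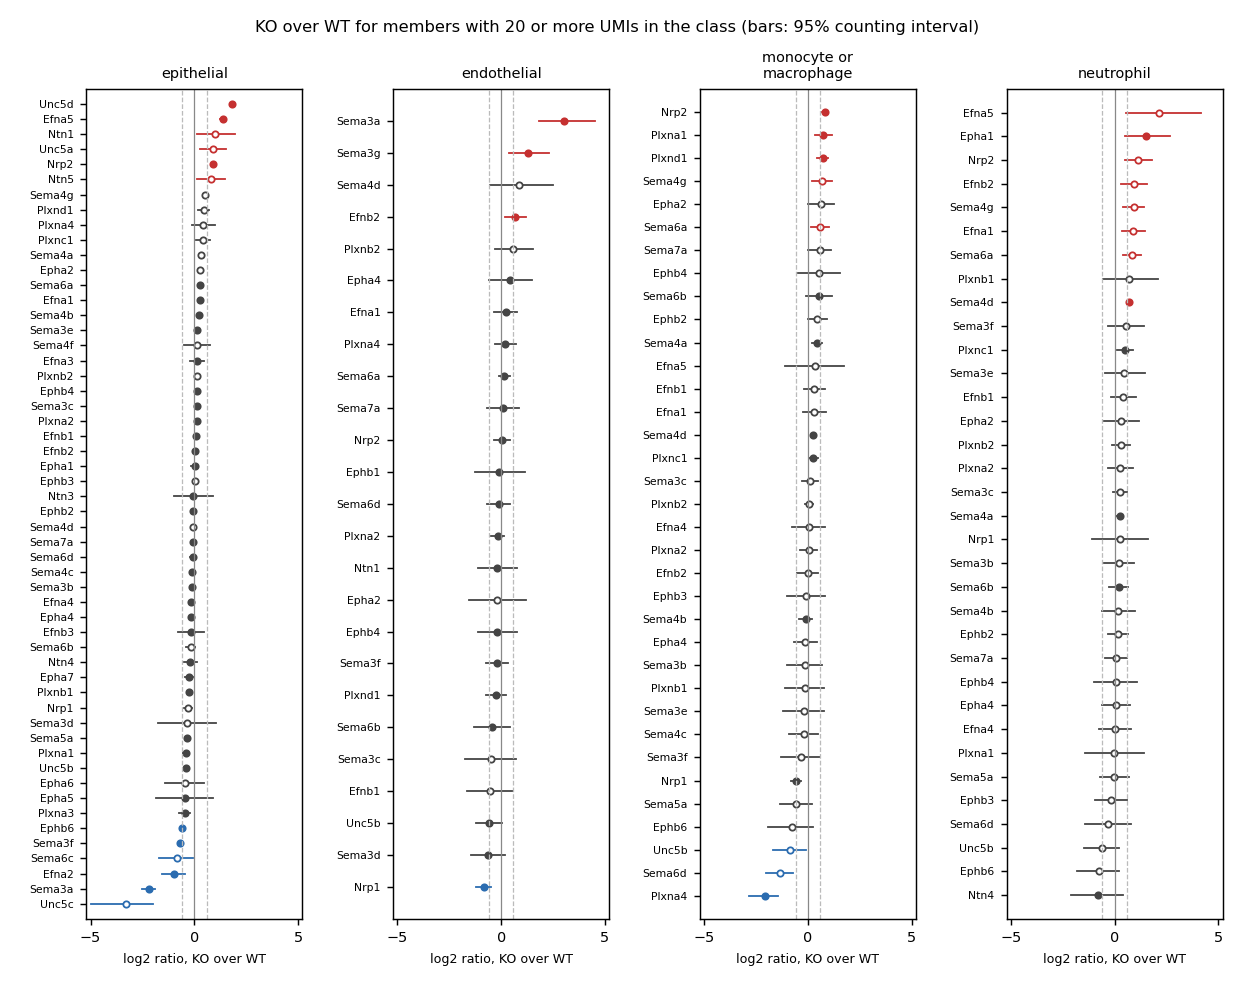
log2 ratio of KO over WT for each member with 20 or more UMIs in the class and UMIs in both libraries. Bars are 95% counting intervals, dashed lines mark 1.5-fold, red and blue mark members counted as higher and lower in KO, and open circles mark members below the empty droplets in their higher library. Unc5d heads the epithelial panel at 1.83 and Sema3a the endothelial panel at 3.02.

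Unc5d had the highest epithelial ratio of the 54. It encodes a dependence receptor of the netrin family and lies on chromosome 8 from 28646717 to 29219636 (GRCm38). The WT epithelium held 616 of its UMIs and the KO epithelium 2072 (6.15 and 21.9 CPM), which gave 1.83 (1.70 to 1.96). UMIs were read in 5.55% of WT and 13.9% of KO epithelial cells, and the cell with the most held 19 and 50. No UMI was read in endothelial cells of either library, which allows up to 7.81 CPM in WT and 4.70 CPM in KO. Empty droplets had 3.12 and 13.7 CPM.

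Efna5, a membrane-anchored ephrin-A ligand on chromosome 17, had 587 and 1455 UMIs (5.86 and 15.3 CPM, 1.39, interval 1.25 to 1.53). It was higher in fibroblasts (73.4 and 82.9 CPM), whose 8 markers summed to 4.96 and 27.9 CPM in epithelial cells. The part of fibroblast RNA in the Efna5 ratio was not tested. Nrp2, a co-receptor for class 3 semaphorins and VEGF-C, had 1952 and 3390 UMIs (19.5 and 35.8 CPM, 0.88, interval 0.79 to 0.96). Empty droplets had 21.9 and 31.8 CPM of Nrp2, so the WT epithelium lay below them and the KO epithelium slightly above. In stem- or progenitor-like cells alone the Nrp2 ratio was 0.38, under 1.5-fold.

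Sema3a, a secreted repellent, was lower in KO epithelium, with 465 and 95 UMIs (4.64 and 1.00 CPM, −2.21, interval −2.55 to −1.89). UMIs of Sema3a were read in 191 WT and 56 KO epithelial cells. With every state compared further on given equal weight, and a small constant added to each UMI sum so that a 0 could enter, the ratio was −0.77. Sema3f stood at 21.7 and 13.5 CPM (−0.68), the kinase-dead receptor Ephb6 at 20.6 and 13.4 CPM (−0.62), and the ephrin Efna2 had 89 and 42 UMIs. Ephb6 was under 1.5-fold with median-of-ratios scaling (−0.56). When every state had equal weight in the same way, the values were −0.35 for Sema3f, −0.28 for Ephb6 and −0.37 for Efna2, so that all 3 were under 1.5-fold. These equal-weight values take in states of low depth with few or no UMIs of a gene, where the constant moves the value.

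Over the whole epithelium the crypt-sorting pairs differed little between the libraries. Ephb2 had a log2 ratio of −0.06 (−0.10 to −0.02), and Ephb3 stood at 21.9 CPM in both libraries (0.01, interval −0.08 to 0.09), close to the empty droplets (18.7 and 24.3 CPM). Their ligand Efnb1 had 52.4 and 55.5 CPM (0.08) and Efnb2 68.6 and 70.6 CPM (0.04). Within the states of full depth described further on, Ephb2, Efnb1 and Efnb2 were each below 0 in 7 of 8 and Ephb3 in 5 of 8. In the goblet state Ephb2 (−0.62) and Ephb3 (−0.83) were counted as lower in KO. In the state led by Gkn3, with 42 KO cells, Ephb3 (−0.70), Efnb1 (−0.96) and Efnb2 (−0.61) were. The shares of all genes below 0 or counted as lower within a state were not computed, so these counts have no background. Of 16 Wnt target genes listed for reference, none was counted as higher and 4 as lower in KO: Mmp7, a matrix protease (640 and 383 CPM), the transcription factors Lef1 (80.7 and 53.2 CPM) and Sp5 (63.2 and 38.2 CPM), and the Wnt inhibitor Apcdd1 (80.5 and 43.1 CPM). The list's median was −0.31.

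Guidance genes outside the member families were found in both directions. Of 18 netrin and Slit receptors, Slits and repulsive guidance molecules, 16 were measured in the epithelium. Of these, 4 were counted as higher and 2 as lower, with a median of 0.12. Over all genes in the epithelium 5.29% were counted as higher and 9.31% as lower, with a median of −0.06. Neogenin (Neo1) had 44.9 and 67.9 CPM, its ligand Rgmb 20.7 and 33.7 CPM, the Unc5 ligand Flrt3 10.7 and 24.0 CPM, and Slit3 0.44 and 2.27 CPM. The Slit receptor Robo1 had 338 and 181 CPM and Flrt1 0.57 and 0.33 CPM. Slit3 lay below the empty droplets. Dcc, the attractive netrin receptor, was at 17 and 14 UMIs. Of 26 measured signal transducers of semaphorins and plexins, 2 were counted as higher and 1 as lower: the adhesion molecule L1cam had 10.1 and 16.3 CPM, Flt4 10 and 23 UMIs and Nrcam 58 and 23 UMIs. Of 21 transducers of ephrins and Eph receptors, 0 were counted as higher and 2 as lower, the exchange factors Vav2 (1100 and 558 UMIs) and Vav3 (16.0 and 10.5 CPM).

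The epithelium was divided into states by clustering without the member genes, and 11 states with 30 or more cells in each library were compared. A member was counted for a state if that state was highest in both libraries and 2-fold or more above the whole epithelium. This held for 25 of 54 members, against 22.6% of all genes. For 15 of the 25, the state was one of 2 with few UMIs per cell (a median of 1536 and 1092). The state of lowest depth, led by Clca3a2, was the peak of 9 members and 5.98% of all genes, and the other, led by Peak1, of 6 members and 5.48%. The Clca3a2 state held Plxnb2 (303 and 322 CPM), Sema4g (455 and 359 CPM), Efna1 (255 and 252 CPM), Sema6d (195 and 177 CPM), Plxna2 (169 and 227 CPM), Sema4a (139 and 164 CPM), Epha2 (99.6 and 101 CPM) and Unc5b (90.9 and 164 CPM). Epha6 was its ninth, with 44 UMIs in the whole epithelium. The Peak1 state held Ephb4 (47.5 and 51.6 CPM), Plxnb1 (69.1 and 36.6 CPM), Plxna1 (23.8 and 24.4 CPM) and Sema4c (40.0 and 21.7 CPM), besides Plxna3 and Ntn1. The part of depth in these 15 was not tested.

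Of the other 10 members, 6 peaked in the state led by Wdr49, Pnliprp2 and Bpifb5 (3.78% of all genes), 2 in the state led by Enho, Col9a3 and Krt17 (0.426%), 1 in the state led by Adh1, Muc3 and Sycn (1.06%) and 1 in the goblet state led by Zg16 (1.78%). None peaked in the states led by Fut9 (0.129%), Lypd8 (0.884%), Gkn3 (0.286%), Defa24 (1.26%) or S100a8 (1.53%).

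Among the 8 states of full depth taken alone, 15 of 54 members were counted, against 14.7% of all genes. Of these, 8 had their peak in the Wdr49 state (639 WT and 220 KO cells), which under this rule took 5.04% of all genes, and 3 in the Enho state (671 and 1173 cells), which took 0.68%. The other 4 peaked 1 each in the Lypd8, Adh1, Defa24 and Zg16 states (2.54%, 1.55%, 1.69% and 2.47% of all genes). Both states carried stem or progenitor markers. The Enho state held Sema3e, the ligand of Plxnd1, at 74.4 and 82.5 CPM, and Unc5d at 24.3 and 63.0 CPM; the last of the 3, Sema3d, had 12 and 9 UMIs in the whole epithelium. In the next state for Sema3e, the Wdr49 state, it had 63.4 and 56.0 CPM, and in the 6 others between 1.29 and 13.8 CPM. Sema3e thus marked the same pair of states in both libraries, and in the Enho state it differed little between the libraries (0.15, interval 0.04 to 0.26). Over the 8 states its ratios ran from −1.67 to 0.73, with 1 state counted as higher in KO and 1 as lower.

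The Wdr49 state held most of the epithelial Sema3a: 396 of 465 WT and 51 of 95 KO UMIs, at 22.9 and 10.1 CPM. It also held the peaks of Ephb6 (45.2 and 35.8 CPM), Epha7 (10.9 and 22.0 CPM), and Plxnb1 (33.8 and 33.3 CPM, among the states of full depth). Sema6c, Sema4f, Ntn3 and Plxna4 peaked there too, each with 20 or fewer UMIs in each library. Transcripts of Ntn3 end inside Tbc1d24 on the same strand, so its UMIs are uncertain. Unc5c, another netrin receptor, had 45 WT and 0 KO UMIs in this state. With the 0 set to its limit of 3 UMIs, the log2 ratio was −2.13 or lower. Over the whole WT epithelium, 52 Unc5c UMIs came from 12 cells, and 1 cell held 30 of them. The Wdr49 state made up 14.2% of WT and 5.09% of KO epithelial cells.

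In the remaining states, Ephb3 peaked in the Paneth-like state led by Defa24 (48.3 and 45.6 CPM). Sema5a, a membrane semaphorin with thrombospondin repeats, peaked in the Adh1 state (196 and 146 CPM). Sema6d peaked in the absorptive state led by Lypd8 (36.2 and 26.9 CPM) and Ntn5 in the goblet state, with 10 and 24 UMIs. Ephb2 lay between 60.3 and 107 CPM in all 8 states. Its ligands were less even. Efnb1 was lowest in the Wdr49 state in WT (31.4 CPM) and in the Gkn3 state in KO (19.0 CPM, 22 UMIs), and highest in the Adh1 state in both libraries (113 and 95.2 CPM). Efnb2 was highest in the Lypd8 state (100 and 90.3 CPM) and lowest in the Gkn3 state (47.5 and 31.1 CPM).

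**Figure D3:**
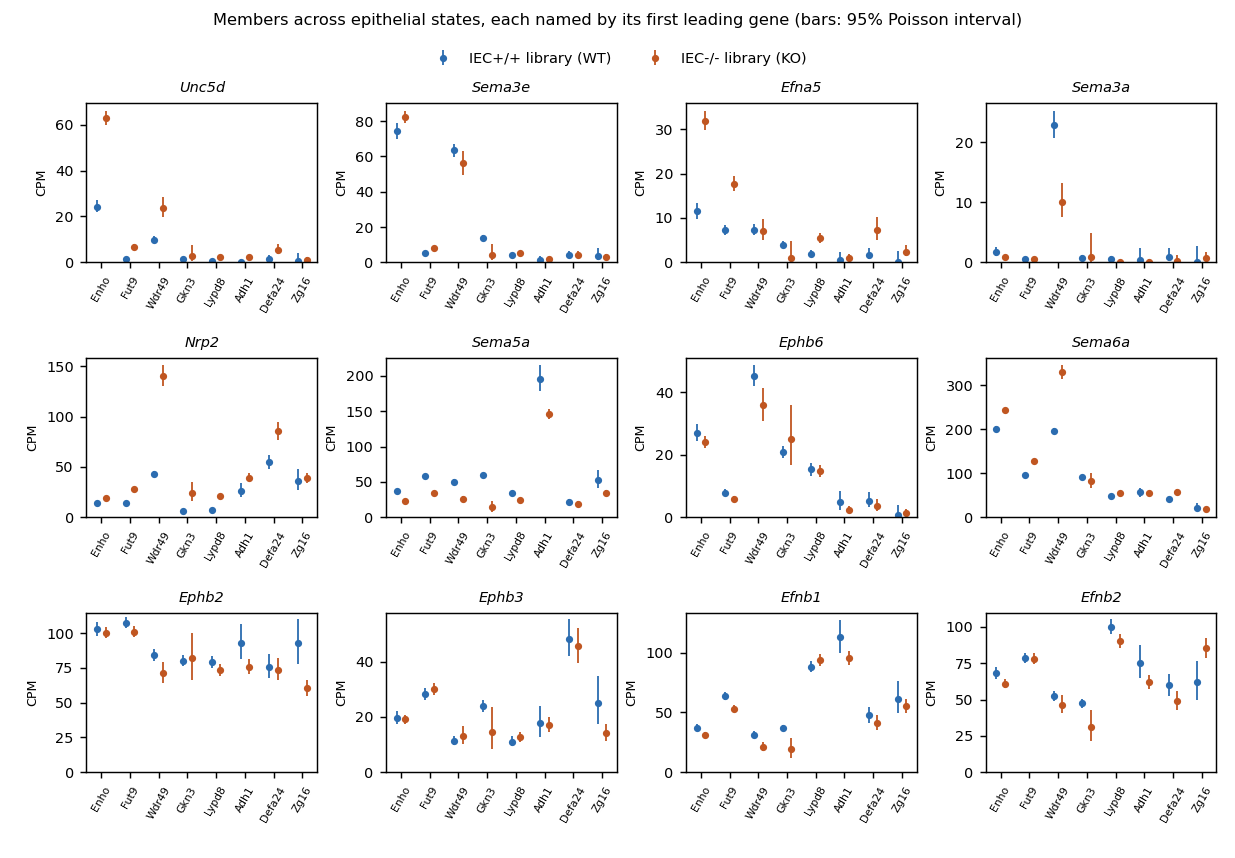
CPM of 12 members in the 8 epithelial states of full depth, named by their first leading gene; points are WT (blue) and KO (orange), bars are 95% Poisson intervals. Unc5d and Sema3e peak in the Enho state, Sema3a and Ephb6 in the Wdr49 state, Sema5a in the Adh1 state and Ephb3 in the Defa24 state.

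Of 35 members measured in 6 or more states of full depth, 4 had ratios of one direction in all of them: Unc5d, Nrp2, Sema3c and Sema5a. Of 11 measured in 2 to 5 states, 6 did: Sema3a, Ntn4 and Plxna4, each measured in 3, and Ntn5, Sema4f and Unc5a, each measured in 2. The share of all genes with ratios of one direction was not computed, so these counts have no background. Unc5d was higher in KO in 6 of 6 states of full depth where it had 20 or more UMIs and was read in both libraries, with log2 ratios from 1.00 to 2.34. In the Enho state, where most of its UMIs lay, 351 and 1637 UMIs gave 1.38 (1.21 to 1.55). Nrp2 was higher in 8 of 8 states, from 0.09 in goblet cells to 2.08, and in the Wdr49 state it had 43.2 and 140 CPM (1.70, interval 1.55 to 1.85). Sema3c was higher in 8 of 8, but by little (0.06 to 0.54, in no state counted). Sema5a was lower in 8 of 8 states (−0.19 to −2.11), though over the whole epithelium it stood at −0.38, short of 1.5-fold. The Adh1 state, where Sema5a was highest, made up 2.34% of WT and 9.02% of KO epithelial cells.

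For other members the states and the whole epithelium gave different pictures. Epha7 was at −0.26 over the whole epithelium but at 1.01 in the Wdr49 state (188 and 111 UMIs, interval 0.66 to 1.36) and 1.58 in the Enho state (18 and 97 UMIs, interval 0.85 to 2.40). In the state led by Gkn3, which had 668 WT and 42 KO cells, it had 136 and 1 UMIs. Ntn5 was at 0.80 over the whole epithelium and below 0 in both states where it was measured (−0.49 and −0.97), while the goblet state that holds it made up 1.89% of WT and 6.57% of KO epithelial cells. Sema6a was close to even over the whole epithelium (0.26) and stood at 197 and 330 CPM in the Wdr49 state (0.74).

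Efna5 was higher in KO in 4 of 6 states and near even in the Wdr49 state (−0.04). In the Enho state it had 11.5 and 32.0 CPM (1.48, interval 1.23 to 1.73) and in the state led by Fut9 7.25 and 17.8 CPM. The lowest of the 6 (−2.19) rested on 1 KO UMI in the Gkn3 state. Sema3a was lower in the Wdr49 state at −1.18 (−1.63 to −0.76), less far apart than over the whole epithelium.

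Endothelial cells were few (41 WT and 73 KO). Of 25 members tested there, 3 were counted as higher in KO (against 4.95% of all genes) and 1 as lower (against 4.58%). The other 21 lay between −0.63 and 0.85. The median log2 ratio was −0.13 over members and 0.00447 over all genes. The cluster was not purely blood endothelium: its 6 lymphatic markers summed to 1408 CPM in WT and 2543 CPM in KO, and 10 epithelial markers to 1692 and 2270 CPM. Cells with 3 or more UMIs of the lymphatic markers, a division added after the values were seen, numbered 8 in WT and 17 in KO.

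Sema3a came almost entirely from the lymphatic-marker cells. All 6 WT UMIs and 80 of 81 KO UMIs lay in them, 3 cells in WT and 9 in KO, at 35.9 and 342 CPM. Over all endothelial cells Sema3a had 15.6 and 127 CPM, a log2 ratio of 3.02 (1.84 to 4.51). This ratio depended on doublet removal: with presumed doublets kept, 19 more WT and 17 more KO cells joined the class, Sema3a had 72 and 124 UMIs, and the ratio was 0.14 (−0.29 to 0.58). Sema3d, another secreted semaphorin, followed the same cells, with 25 of 27 WT and 28 of 29 KO UMIs in them (150 and 120 CPM). Over all endothelial cells Sema3d had 70.3 and 45.4 CPM, and its interval included 0 (−0.63, −1.44 to 0.18).

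Sema3g, a class 3 semaphorin known from arterial endothelium, showed the other pattern. It had 13 and 53 UMIs (33.8 and 83.0 CPM, 1.29, interval 0.40 to 2.29), and all 13 WT and 43 of 53 KO UMIs lay outside the lymphatic-marker cells. In WT, 9 of the 13 UMIs came from 1 cell, and 10 KO UMIs inside the lymphatic-marker cells came from 1 cell. Outside the lymphatic-marker cells the ratio was 0.83 (−0.09 to 1.85).

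Efnb2, the arterial ligand of Ephb4, had 48 and 126 UMIs (125 and 197 CPM, 0.66, interval 0.17 to 1.17). It stood at 138 and 245 CPM outside the lymphatic-marker cells and at 108 and 115 CPM within them. In KO, 1 cell held 27 of its 126 UMIs. With presumed doublets kept the ratio was 0.54, under 1.5-fold. Nrp1, the receptor for Sema3a and a co-receptor of VEGF, had 144 and 133 UMIs (375 and 208 CPM, −0.85, interval −1.20 to −0.50). Within the lymphatic-marker cells it stood at 395 and 103 CPM, and outside them at 359 and 270 CPM (−0.41, interval −0.85 to 0.02); with presumed doublets kept it was −0.58, just under 1.5-fold. In WT, 1 cell held 26 of its 144 UMIs.

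Nrp2 was even, at 240 and 248 CPM. Of related genes, the VEGF receptor Kdr had 633 and 343 CPM and the endothelial Robo4 221 and 132 CPM, both counted as lower in KO, while the kinase Yes1 (156 and 302 CPM), Vav3 (80.7 and 163 CPM), the Unc5 ligand Flrt2 (5 and 25 UMIs) and Rgmb (4 and 25 UMIs) were counted as higher. These 6 were all that was counted of 7 measured genes of the netrin and Slit list, 19 of the semaphorin and plexin list and 17 of the ephrin and Eph list. Among all genes in endothelial cells, 4.95% were counted as higher and 4.58% as lower. Pecam1, which all endothelial cells carry, had 1000 and 1020 CPM. Blood endothelial markers together summed to 8971 and 7910 CPM.

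**Figure D4:**
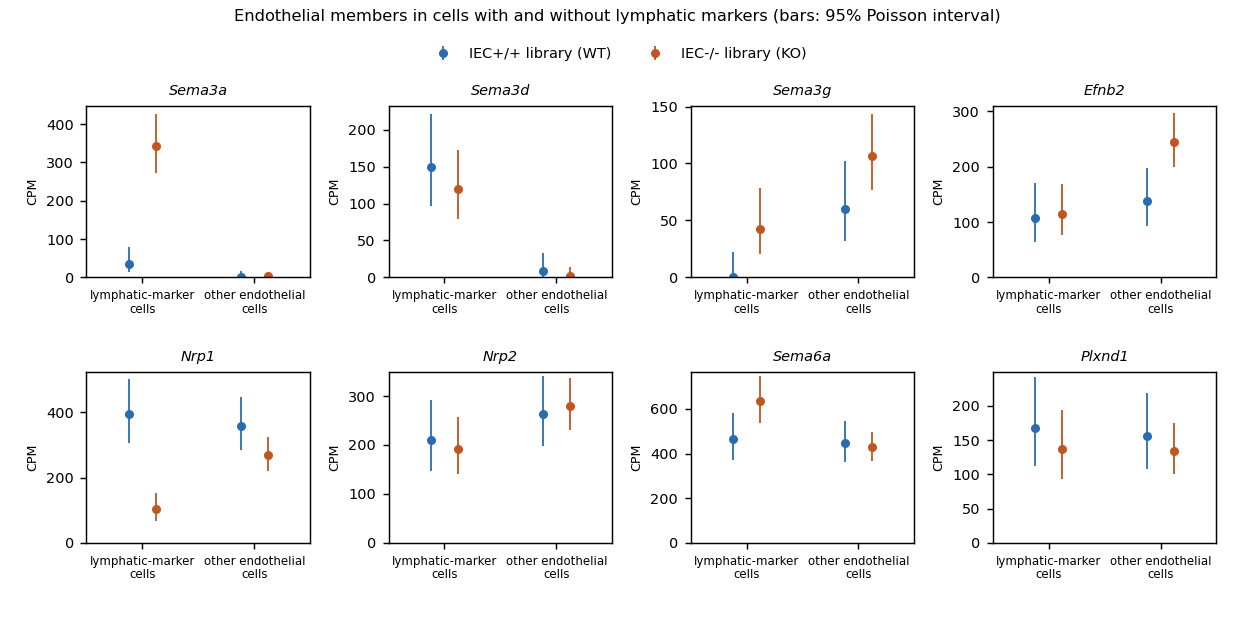
CPM of 8 members in endothelial cells with 3 or more UMIs of lymphatic markers (8 WT and 17 KO cells) and in the other endothelial cells (33 and 56), WT in blue and KO in orange; bars are 95% Poisson intervals. Sema3a and Sema3d are read almost only in the lymphatic-marker cells, and Efnb2 stands at 138 and 245 CPM in the others.

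In monocytes and macrophages (1277 WT and 777 KO cells) 35 members were tested. Of these, 5 were counted as higher in KO (14.3%, 4.04% of all genes) and 3 as lower (8.57%, 3.95% of all genes). The other 27 lay between −0.78 and 0.62. Sema6a, Sema4g, Sema6d and Unc5b were among the 8 but lay below the empty droplets in their higher library. The 4 others were all receptors. Nrp2 had 1232 and 1400 UMIs (114 and 200 CPM, 0.80, interval 0.69 to 0.92), Plxnd1 22.0 and 35.9 CPM (0.71, interval 0.45 to 0.97) and Plxna1 8.81 and 14.7 CPM (0.74, interval 0.32 to 1.15). Plxna4 was lower, with 137 and 21 UMIs (12.7 and 2.99 CPM, −2.09, interval −2.82 to −1.42).

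The class held a cluster led by C1qc, Apoe and Ms4a7 (473 WT and 247 KO cells) and a monocyte-like cluster led by F13a1 and Chil3 (804 and 530 cells). Nrp2 was higher in KO in both, at 136 and 253 CPM in the C1qc cluster and 89.5 and 148 CPM in the F13a1 cluster. Plxnd1 had 25.7 and 47.8 CPM in the first and 17.7 and 24.4 CPM in the second. Nearly all Plxna4 UMIs lay in the C1qc cluster, 136 of 137 in WT and 17 of 21 in KO, at 23.6 and 4.93 CPM (−2.26). Nrp1 also sat mainly there (68.5 and 45.8 CPM, −0.58). The 2 neuropilins thus differed in opposite directions within the C1qc cluster, with Nrp1 just short of 1.5-fold. In dendritic cells Nrp2 had 86.3 and 52.4 CPM (−0.72), lower in KO. Macrophage markers in the class summed to 26716 and 18579 CPM. Of 12 measured genes of the netrin and Slit list, 4 were counted as higher (Flrt3, Neo1, Slit2 and Slit3) and 2 as lower (Robo1 and Slit1), but Neo1, Slit2, Slit3 and Robo1 lay below the empty droplets. Flrt3 had 19.5 and 36.6 CPM and Slit1 43 and 9 UMIs. Of 22 semaphorin and plexin transducers, 1 was higher, the receptor kinase Met, a partner of plexin B1 (189 and 287 CPM), and none lower. Of 19 ephrin and Eph transducers, none was higher and 2 were lower, Itsn1 (42.7 and 26.8 CPM) and Abl1 (34.2 and 21.9 CPM). Among all genes in the class, 4.04% were counted as higher and 3.95% as lower.

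Sema4d was the leading guidance transcript of neutrophils. This membrane semaphorin, also called CD100, binds Plxnb1 and Plxnb2. In neutrophils (2744 WT and 3702 KO cells) it had 3326 and 5397 UMIs, 474 and 755 CPM, a log2 ratio of 0.67 (0.61 to 0.73). T cells were the next class, with 318 and 289 CPM. UMIs of Sema4d were read in 54.6% of WT and 63.0% of KO neutrophils, at a median of 2408.5 and 1847 UMIs per cell.

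The ratio for neutrophils as a class was larger than in any of their 3 clusters. In the cluster led by Nlrp3, Ccrl2 and Ccl3 (713 WT and 2585 KO cells) Sema4d had 590 and 825 CPM (0.48), in that led by Mmp8 and Retnlg (1660 and 940 cells) 371 and 478 CPM (0.37), and in that led by Gbe1 and Hmox1 (371 and 177 cells) 798 and 1158 CPM (0.54). All 3 were higher in KO and none reached 1.5-fold. In neutrophils the median ratio of all genes was 0.16. Median-of-ratios scaling, which takes that shift out, gave 0.51 for Sema4d, under 1.5-fold.

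Of 34 members tested in neutrophils, 8 were counted as higher in KO (23.5%, 12.6% of all genes) and 0 as lower (3.82% of all genes). The members' median was 0.26, and the 26 not counted lay between −0.79 and 0.71. Apart from Sema4d and Epha1 (11 and 32 UMIs), the 8 lay below the empty droplets in KO: Nrp2, Efna1, Efnb2, Efna5, Sema6a and Sema4g, each with 98 or fewer KO UMIs but Sema6a with 126. Epithelial markers in neutrophils summed to 2084 and 2594 CPM, and their part in these 6 was not tested. Sema4a, a relative of Sema4d, had 67.6 and 80.3 CPM in neutrophils. The netrin and Slit list had 8 genes measured in neutrophils, 1 counted as higher and 1 as lower. Of 22 semaphorin and plexin transducers 5 were higher, and of 19 ephrin and Eph transducers 5, with none lower. Levels of these genes beside the empty droplets are not given here. The receptor Plxnb2 had 67.4 and 73.8 CPM in the epithelium and 46.6 and 48.0 CPM in macrophages, all below the empty droplets (67.8 and 77.5 CPM), and Plxnc1, the receptor of Sema7a, 34.7 and 41.5 CPM in macrophages.

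**Figure D5:**
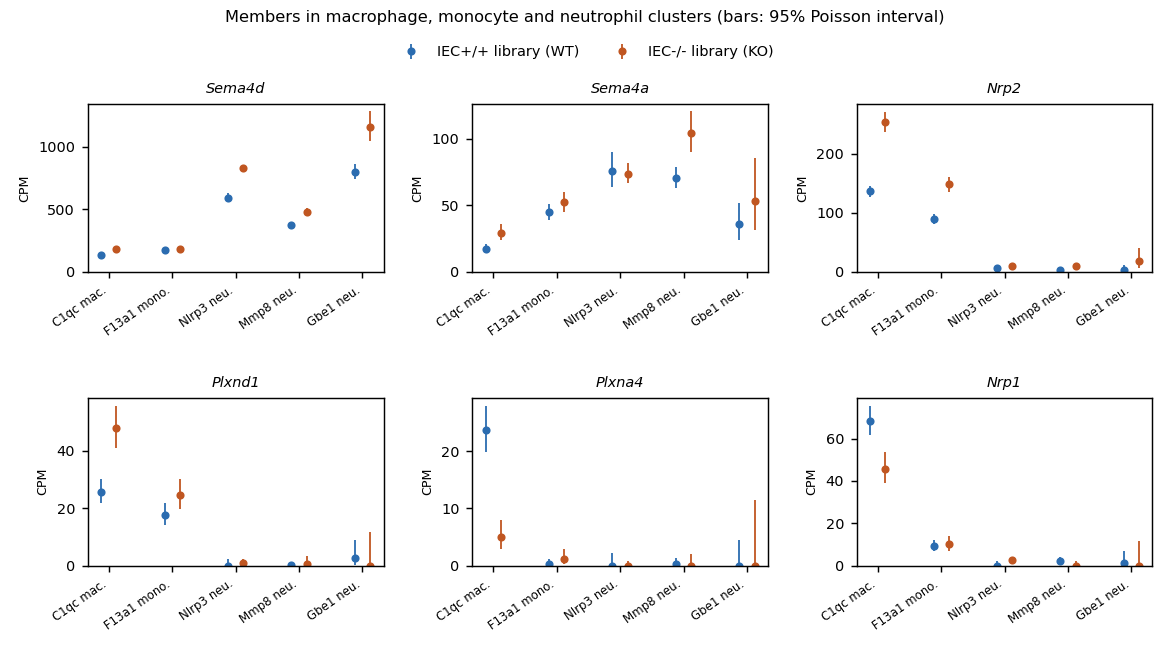
CPM of 6 members in 2 macrophage or monocyte clusters and 3 neutrophil clusters, each named by its first leading gene, WT in blue and KO in orange; bars are 95% Poisson intervals. Sema4d is higher in KO in all 3 neutrophil clusters, Nrp2 and Plxnd1 are higher in KO in both macrophage or monocyte clusters, and Plxna4 and Nrp1 are lower in KO in the C1qc cluster.

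For some ligands the highest class was not that of a receptor: Sema3e was epithelial and its receptor Plxnd1 endothelial, and Sema4d was highest in neutrophils while Plxnb1 was epithelial. Other pairs shared a highest class, such as Efnb2 and Ephb4, Sema3a and Nrp1, and Sema6a and Plxna2 in the endothelium, and Efnb1 and Ephb2 in the epithelium. Here a class was highest at any fold: Sema4d, Efnb2, Ephb4, Nrp1 and Efnb1 did not meet the 2-fold rule. Endothelial Sema3a came almost entirely from lymphatic-marker cells, while 78 of 144 WT and 109 of 133 KO Nrp1 UMIs lay outside them. Plxnb1 in the epithelium lay close to the level of empty droplets. Protein and binding were not measured.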

How the data were processed

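The authors deposited UMI counts per gene and barcode. Cell Ranger 4 wrote the matrices, per the file headers; the build mm10 and Seurat (role not stated) are named in the submitters' processing notes. Barcodes with 500 or more UMIs were tested against the free RNA of barcodes under 100 UMIs (10000 multinomial draws, FDR 0.001), giving 12297 WT and 13157 KO barcodes. Over 25% mitochondrial UMIs (1456 and 1513) and the highest Scrublet scores (940 and 1085, 0.8% per 1000 cells) were removed; barcodes with fewer than 200 genes were left out. Free RNA was put at 10.1% and 11.8% of UMIs from immunoglobulin genes.

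Cells were clustered without the members (2000 variable genes, 30 components, 15 neighbours, Leiden resolution 1, epithelium 0.6; scanpy 1.11.5, leidenalg 0.10.2, Python 3.11.15) and named from marker lists; no integration was done. UMI counts were summed per class and library. Ratios carry exact conditional binomial intervals, CPM exact Poisson intervals; a member is counted past 1.5-fold when the interval excludes 0 and it has 20 UMIs. In sums simulated for the epithelium (18542 genes), 92.5% of 2-fold changes were counted, and for endothelial cells (7077 genes) 62%. The simulated sums held counting error alone. They had no variation between cells, animals or libraries, so the shares do not say how many real changes would be counted.

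Named were members counted for a class, state (up to 15 by UMIs) or difference (up to 12 a class, not below the empty droplets), with Ephb2, Ephb3, Efnb1, Efnb2, Ephb4, Nrp1, Plxnd1, Sema3e and Unc5d always; others named were chosen after their values were seen. Members and lists were chosen with earlier results of these data known. Positions are from GENCODE vM21 (GRCm38), promoter windows from RefSeq.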

Additional observations from a re-analysis of the deposited data

Results flagged for a closer look

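Sema3a stood in opposite directions in 2 cell classes: its log2 ratio of KO over WT was 3.022 in endothelial cells and −2.212 in epithelial cells. With 1 library per genotype the difference between the classes was not tested. The endothelial value rested on 6 WT and 81 KO UMIs and was 0.14 with presumed doublets kept.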

How the results depend on the processing

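Over 45 pairs of a named member and a class, 584 alternative values were computed: 533 lay within the main counting interval, 51 outside it, and 0 changed the sign of a counted ratio. At 2-fold, counts fell to 2 higher and 3 lower members in the epithelium, 0 lower in the endothelium, 0 higher in macrophages and 3 higher in neutrophils. With stem- or progenitor-like cells alone, the epithelium had 3 higher and 3 lower members, and with states of equal weight 2 lower. In the endothelium, 0 members were lower without doublet removal and 2 with cells lacking an Epcam UMI (19 WT and 21 KO cells, added after seeing the data). With cells under 3 lymphatic marker UMIs (likewise added) 1 was higher and 0 lower. In macrophages 8 were higher when each library was clustered alone. In neutrophils 1 was lower without doublet removal, at Leiden resolution 2, with libraries clustered alone and with free RNA subtracted. Members highest in the epithelium numbered 3 without doublet removal and 5 at 3-fold. Members differing between states numbered 12 at 3-fold and 15 without the states of low depth or led by neutrophil genes (added). Of the other 144 counts, none moved by over 1.5 times. Median-of-ratios scaling shifted the neutrophil ratios by 0.16. No paired analysis was possible because each genotype had 1 library. The endothelial sums were the shallowest of the 4 classes in cells, where 1 WT UMI equals 2.6 CPM.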
